A study of Mus musculus with 8 samples.

Results

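The 10 genes described here carry the insulin signal of a muscle fibre from the insulin receptor to the glucose transporter GLUT4, and they were picked by name from the 22173 genes of the deposited table. They are Insr, Irs1, Irs2, Grb10, Pik3r1, Akt1, Akt2, Tbc1d1, Tbc1d4 and Slc2a4, and each was found in the table and tested. Skeletal muscle came from C57BL/6 mice with diet-induced obesity (DIO), an inbred strain fattened by feeding, aged 24 weeks when they were assigned to groups. Of 8 mice per group, 4 were sequenced: the liraglutide group was injected subcutaneously with 0.2 mg/kg of liraglutide, a GLP-1 receptor agonist, daily for 9 weeks, and the model group received saline. All 8 libraries therefore come from obese mice, and neither lean mice nor a measure of insulin action were analysed here. Each library title carries its own code, and the titles do not say what the code stands for. The muscle sampled, the feeding state, any insulin given before tissue collection and the time of day were not given in the sources used here.

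Insulin binding activates the receptor kinase, which phosphorylates docking proteins on tyrosine. These recruit phosphoinositide 3-kinase, whose lipid product brings the kinase Akt to the membrane for activation. Akt phosphorylates and restrains GTPase-activating proteins of Rab GTPases. Storage vesicles then bring GLUT4 to the cell surface, where the transporter lets glucose into the cell. Most of this control acts on phosphorylation and on protein location, which RNA levels do not show.

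Library totals ran from 17133476 to 18244579 counts in the liraglutide group and from 15033631 to 16622716 in the model group, and the 10 genes had 555 to 7813 counts per library. Defining genes of muscle fibres were abundant in every library: 10 of them, such as Acta1 and Ckm, summed to 158585 to 163916 CPM (counts per 1000000) with liraglutide and 151121 to 155502 in the model group, and 5 of the 10 passed as higher. Markers of adipocytes, which also take up glucose through GLUT4, were lower, with 9 of 12 passing and a median log2 fold change of -0.73. Their summed level was 2414 to 3324 CPM with liraglutide and 3677 to 4956 in the model group, and none was at 0. Of 11 epididymis markers 8 were measurable and all 8 were lower, at summed levels of 0.226 to 1.37 against 20.9 to 44.3 CPM. Of 9 markers of fibro-adipogenic progenitors 2 were lower by edgeR and 4 by DESeq2. In edgeR 6 had an unadjusted p under 0.05, and the median log2 fold change was -0.39. Their summed level was 796 to 1283 CPM with liraglutide and 1305 to 1322 in the model group. Of 6 hepatocyte markers 2 were measurable, and 1 was lower by edgeR and 0 by DESeq2. The 6 summed to 5.49 to 17.9 CPM with liraglutide and 13.5 to 485 in the model group. By edgeR 0 of 7 slow fibre, 0 of 8 endothelial and 0 of 8 macrophage markers passed, with 0, 2 and 3 at an unadjusted p under 0.05 and 0, 0 and 1 called by DESeq2. In whole tissue, fewer cells of a type and less RNA per cell cannot be told apart. How transcripts of epididymis and liver came into muscle libraries, and whether adipocyte transcripts came with them, was not tested. Levels also leaned with gene length and GC content: across genes, a library's deviation from the mean of all libraries correlated with log gene length at -0.161 to 0.0159 under liraglutide and at 0.0249 to 0.150 in the model group, and with GC content at 0.128 to 0.158 and at -0.206 to -0.101, without overlap between groups.

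By FPKM the most abundant transcript was Slc2a4, and the least abundant were Irs1 and Pik3r1. On the FPKM scale (fragments scaled by gene length and by library total), which allows levels of different genes to be compared, the means over the 8 libraries were 128 for Slc2a4, 50.4 for Akt2, 23.9 for Irs2, 19.9 for Akt1, 14.1 for Insr, 13.6 for Tbc1d1, 10.99 for Tbc1d4, 7.82 for Grb10, 5.96 for Irs1 and 4.30 for Pik3r1. Slc2a4 lay above Akt2, Akt2 above Irs2, and Akt1 above Insr in 8 of 8 libraries, with ranges that did not overlap. Tbc1d1 lay above Tbc1d4, and Tbc1d4 above Grb10, in 8 of 8 libraries, although their ranges over libraries overlapped. The order of Irs2 and Akt1, of Insr and Tbc1d1, of Grb10 and Irs1, and of Irs1 and Pik3r1 changed between libraries, with the first above the second in 5, 4, 6 and 5 of 8. The low end depends on the single gene length used for FPKM, 11472 bases for Pik3r1, 9163 for Irs1 and 5241 for Grb10. Without division by length, mean scaled CPM was lowest for Grb10, at 37.4 with liraglutide and 44.4 in the model group. Pik3r1 stood at 48.6 and 50.2, and Irs1 at 58.6 and 50.7.

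**Figure D1:**
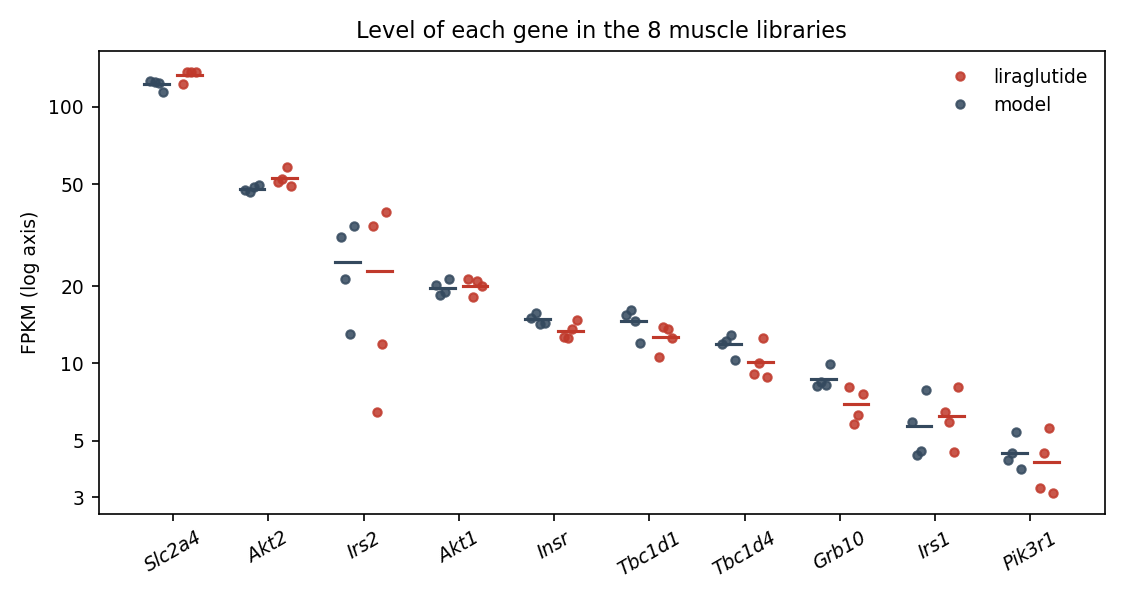
FPKM (log axis) of the 10 genes in each library, ordered by mean level, with 4 liraglutide (red) and 4 model (dark) libraries as points and group means as bars. Slc2a4 sits at 115 to 137 FPKM in all libraries, whereas Irs2 spreads from 6.48 to 38.9 FPKM.

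Of the 10 genes, 1 rose with liraglutide, Slc2a4, and 0 fell, in edgeR's quasi-likelihood test with Benjamini-Hochberg adjustment over the 12963 genes tested. The same test called 5.45% of all tested genes higher and 4.83% lower, and with raw library totals in place of TMM 2.61% higher and 9.57% lower. At an unadjusted p under 0.05 the members that passed were Slc2a4, Akt2 and Grb10, 3 of 10, against 26.5% of all tested genes, and DESeq2 called 2 members higher and 0 lower, against 5.39% and 4.46% of the 15009 genes for which it gave an adjusted p. Fitted log2 fold changes were positive for 4 and negative for 6 members, with a median of -0.04 against -0.01 over all genes, and the farthest from 0 was -0.25, for Grb10. On counts scaled by TMM (trimmed mean of M values, a factor that aligns most genes between libraries), the groups did not overlap for Slc2a4 and Akt2, 2 of 10 members against 18.3% of all genes. On FPKM, which is scaled by library totals alone, they did not overlap for Grb10, 1 of 10 against 20.3%. With 10 members, each of these counts lies within 2 genes of what the share of the whole table would give.

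**Figure D2:**
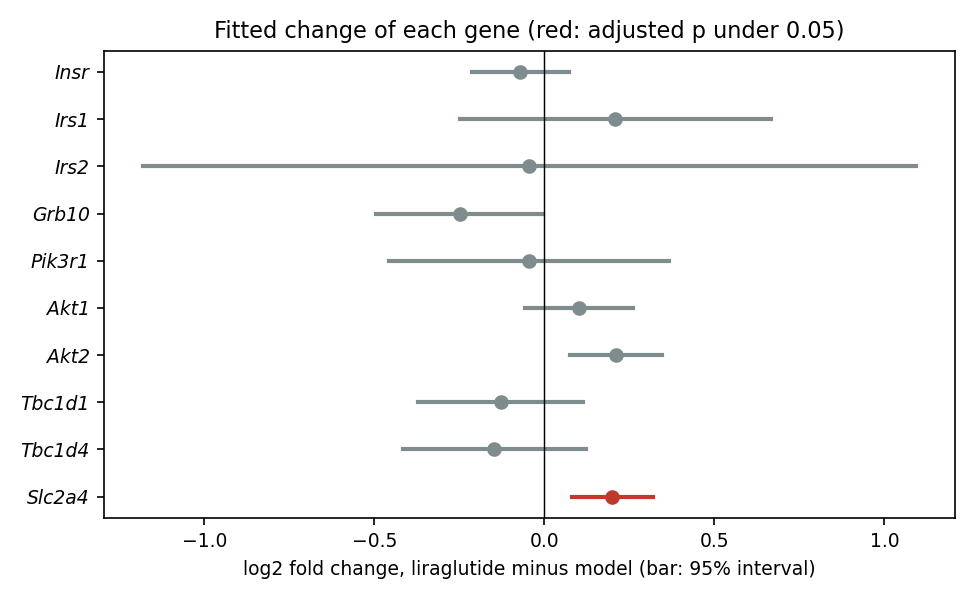
Fitted log2 fold change of each gene (liraglutide minus model, horizontal axis) with its 95% interval, ordered from receptor to transporter. The interval of Slc2a4 runs from 0.08 to 0.32, and that of Irs2, from -1.18 to 1.09, is the widest of the 10.

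Insr (Entrez gene 16337) encodes the insulin receptor. Its level was 12.7, 12.6, 13.6 and 14.7 FPKM in liraglutide 1 to 4 and 15.04, 15.7, 14.3 and 14.4 FPKM in model 1 to 4. The highest liraglutide library lay inside the model range, so the groups overlapped. The log2 fold change was -0.07 ± 0.064 SE (95% interval -0.21 to 0.07, edgeR adjusted p = 0.521), and it turned to 0.03 with a gene length offset and to 0.05 with length and GC content.

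Irs1 (Entrez gene 16367) and Irs2 (Entrez gene 384783) encode the docking proteins that the receptor phosphorylates. Irs2 was the most variable of the 10 genes. It stood at 34.4, 6.48, 11.9 and 38.9 FPKM in liraglutide 1 to 4 and at 31.03, 21.3, 12.97 and 34.3 FPKM in model 1 to 4. The highest library exceeded the lowest by 6.00-fold in the liraglutide group and by 2.65-fold in the model group, and the groups overlapped over most of their range. The spread within groups, 0.98 on the log2 scale, was at percentile 99.0 of all tested genes, whose median was 0.16. The fitted change was -0.04 ± 0.51 SE (log2, 95% interval -1.18 to 1.09, edgeR adjusted p = 0.968), and on the linear scale the interval ran from 0.441-fold to 2.13-fold. It ranged from -0.42 without liraglutide 4 to 0.27 without liraglutide 2.

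Irs1 stood at 6.46, 5.92, 4.50 and 8.08 FPKM in liraglutide 1 to 4 and at 5.89, 4.40, 4.54 and 7.90 FPKM in model 1 to 4. The highest library of each group was its library 4, and the groups overlapped almost fully. The fitted log2 fold change was 0.21 ± 0.20 SE (95% interval -0.25 to 0.67, edgeR adjusted p = 0.565), and the spread within groups was at percentile 84.1. On omission of 1 library the change ran from 0.06 without liraglutide 4 to 0.41 without model 4. Relative to their means over the 8 libraries, both docking protein genes were high in liraglutide 1, liraglutide 4 and model 4 and both were low in liraglutide 3 and model 3. They lay on opposite sides of their means in the other 3 libraries.

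The promoters of both docking protein genes held the same pair of short motifs, and the 120 bases before the annotated start are shown for that reason. They come from RefSeq on build GRCm38.p6, from the minus strand, at chr1:82291440-82291559 for Irs1 and chr8:11008930-11009049 for Irs2. Capitals mark CACGTG, an E-box letter string that basic helix-loop-helix factors bind, and TGTTTTG, letters of the insulin response element that FoxO factors bind.
Irs1: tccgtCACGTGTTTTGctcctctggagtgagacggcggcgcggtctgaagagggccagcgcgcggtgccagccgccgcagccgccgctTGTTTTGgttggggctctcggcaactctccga
Irs2: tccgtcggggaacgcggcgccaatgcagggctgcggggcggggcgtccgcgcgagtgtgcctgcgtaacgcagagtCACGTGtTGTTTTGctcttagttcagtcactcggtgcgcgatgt

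In Irs1 the motifs share 2 bases, CACGTG at -115 to -110 and TGTTTTG at -111 to -105, with a further TGTTTTG at -32 to -26. In Irs2, CACGTG lay at -44 to -39 and TGTTTTG at -37 to -31. Both strands of the 250 bases before the start were searched in 32851 promoters. CACGTG was found in 6.02% of them and TGTTTTG in 5.56%, and 15 promoters, 0.0457%, had both motifs starting within 20 bases of each other. The motifs were chosen after the sequences had been seen, and a match is a description of letters and not a bound site. Promoters were found in the table for 8 of the 10 genes.

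The genes whose library-to-library pattern lay nearest to that of Irs2 were Sik1, Akap12 and Thbs1. Sik1 encodes a salt-inducible kinase that cyclic AMP signalling induces, Akap12 a scaffold of protein kinase A, and Thbs1 the matrix protein thrombospondin 1. Likeness was measured as the root mean square distance between mean-centred log2 levels over the 8 libraries, among 3721 genes with a mean of at least 10 FPKM, and was 0.23, 0.26 and 0.29. This was looked up after the spread of Irs2 had been seen. Sik1 stood at 43.0, 6.87, 18.7 and 37.99 FPKM in liraglutide 1 to 4 and at 40.6, 29.3, 19.9 and 38.5 FPKM in model 1 to 4. It was on the same side of its mean as Irs2 in 8 of 8 libraries, with its lowest value, like that of Irs2, in liraglutide 2. Sik1 was chosen as the nearest gene over these same 8 libraries, so this follows largely from the choice. With liraglutide 2 and model 3 left out, these 3 genes ranked 5, 7 and 13.

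**Figure D3:**
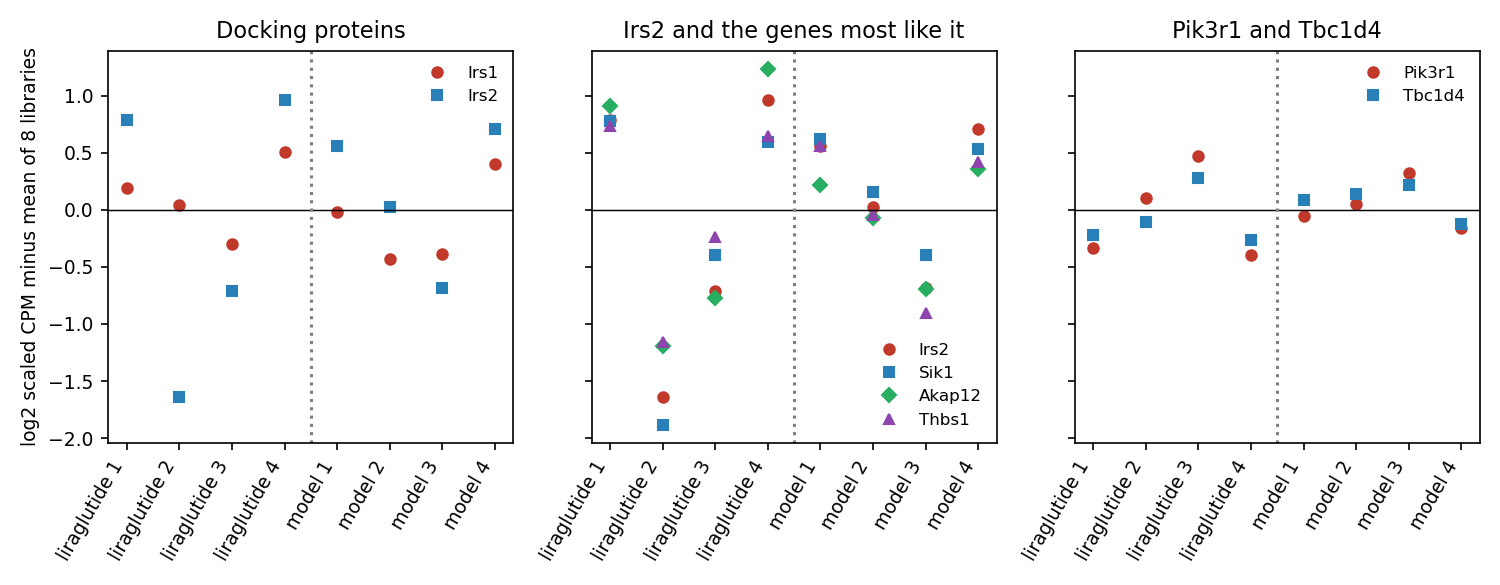
Log2 TMM-scaled CPM minus the mean of the 8 libraries (vertical axis), by library, for the docking protein genes, for Irs2 with its 3 nearest genes, and for Pik3r1 with Tbc1d4. Sik1, Akap12 and Thbs1 were chosen for nearness to Irs2. The symbols of these 4 genes lie together, low in liraglutide 2, liraglutide 3 and model 3. Pik3r1 lies opposite to Irs2 in 7 of 8 libraries, a count not made for other genes.

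Grb10 (Entrez gene 14783) encodes an adaptor that binds the activated receptor and inhibits it. Its level was 8.07, 5.80, 6.29 and 7.59 FPKM in liraglutide 1 to 4 and 8.13, 8.45, 8.23 and 9.96 FPKM in model 1 to 4. All liraglutide libraries lay below all model libraries on this scale, by a narrow margin between liraglutide 1 and model 1. On TMM-scaled counts liraglutide 1, at 43.4 CPM, lay above model 1, at 41.4, and model 3, at 42.2. The log2 fold change was -0.25 ± 0.11 SE (95% interval -0.49 to -0.005, edgeR adjusted p = 0.180), and its adjusted p was 0.0809 to 0.373 in the 21 other settings. Grb10 was not called in any of them.

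Pik3r1 (Entrez gene 18708) encodes the regulatory subunits p85α, p55α and p50α of phosphoinositide 3-kinase. It stood at 3.27, 4.48, 5.59 and 3.13 FPKM in liraglutide 1 to 4 and at 4.18, 4.48, 5.39 and 3.89 FPKM in model 1 to 4. Library 3 was the highest of each group and the model range lay inside the liraglutide range. The log2 fold change was -0.04 ± 0.18 SE (95% interval -0.46 to 0.37, edgeR adjusted p = 0.907). Its spread within groups was at percentile 80.5. Pik3r1 was on the opposite side of its mean from Irs2 in 7 of 8 libraries, and how many other genes do so was not counted. Among 3722 genes, the one nearest in pattern to Pik3r1 was another member, Tbc1d4, at a distance of 0.135. Tbc1d4 and Pik3r1 lay on the same side of their means in 6 of 8 libraries. Npc1, a cholesterol transporter of lysosomes, and Timp4, an inhibitor of metalloproteinases, followed closely at 0.139 and 0.144. Tbc1d4 ranked 4 with liraglutide 2 and model 3 left out.

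Akt2 (Entrez gene 11652), the Akt isoform best known for insulin-stimulated glucose uptake, stood at 51.05, 52.5, 58.2 and 49.2 FPKM in liraglutide 1 to 4 and at 47.5, 46.5, 48.8 and 49.5 FPKM in model 1 to 4. The groups touched on this scale, where model 4 exceeded liraglutide 4. On TMM-scaled counts they were separate, with 291 to 353 CPM under liraglutide against 263 to 277 in the model group. The log2 fold change was 0.21 ± 0.061 SE (95% interval 0.07 to 0.35), which missed the threshold at an edgeR adjusted p of 0.0561. It was called with upper quartile scaling (adjusted p = 0.0490), with DESeq2 (0.0261), with a gene length offset (0.0399) and without liraglutide 4 (0.0414), and in none of the other 17 settings.

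Akt1 (Entrez gene 11651), the more broadly expressed isoform, varied little. It stood at 21.4, 18.1, 20.9 and 19.97 FPKM in liraglutide 1 to 4 and at 20.2, 18.5, 19.04 and 21.3 FPKM in model 1 to 4. The groups overlapped fully, with a log2 fold change of 0.10 ± 0.071 SE (95% interval -0.06 to 0.26, edgeR adjusted p = 0.400), which came to 0.16 without liraglutide 2 and to 0.00086 with the length and GC offset. Akt2 exceeded Akt1 2.38-fold to 2.90-fold under liraglutide and 2.33-fold to 2.56-fold in the model group.

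Tbc1d1 (Entrez gene 57915) and Tbc1d4 (Entrez gene 210789, also called AS160) encode the GTPase-activating proteins that hold Rab GTPases of GLUT4 vesicles inactive. Tbc1d1 stood at 10.6, 13.8, 13.6 and 12.6 FPKM in liraglutide 1 to 4 and at 15.4, 16.2, 14.7 and 12.02 FPKM in model 1 to 4. Model 4 lay below 3 of the liraglutide libraries. Tbc1d4 stood at 9.09, 10, 12.6 and 8.85 FPKM in liraglutide 1 to 4 and at 11.9, 12.3, 12.96 and 10.3 FPKM in model 1 to 4. Here liraglutide 3 lay inside the model range. Fitted log2 fold changes were -0.13 ± 0.11 SE for Tbc1d1 (95% interval -0.37 to 0.11, edgeR adjusted p = 0.494) and -0.15 ± 0.12 SE for Tbc1d4 (95% interval -0.42 to 0.12, edgeR adjusted p = 0.482). Neither was called in any setting. Tbc1d1 was at -0.05 without liraglutide 1 and at -0.04 with the length offset, and Tbc1d4 at -0.27 without liraglutide 3 (edgeR adjusted p = 0.0973) and at -0.06 with the length offset. Tbc1d1 and Tbc1d4 lay on the same side of their means in 7 of 8 libraries, and how many other pairs of genes do so was not counted.

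Slc2a4 (Entrez gene 20528), which encodes GLUT4, the insulin-responsive glucose transporter, was modestly higher with liraglutide. It stood at 123, 137, 137 and 137 FPKM in liraglutide 1 to 4 and at 126, 125, 124 and 115 FPKM in model 1 to 4. On this scale liraglutide 1 lay below model 1, model 2 and model 3. On TMM-scaled counts the groups did not overlap, at 393, 434, 449 and 437 against 382, 383, 379 and 348 CPM. The rise was 1.15-fold (95% interval 1.06 to 1.25, log2 fold change 0.20 ± 0.053 SE, edgeR adjusted p = 0.0437), and its spread within groups, 0.076 on the log2 scale, was at percentile 15.98 of all tested genes.

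The call of Slc2a4 was close to the threshold and did not outlast most changes of setting. The log2 fold change was positive in all 21 other settings, from 0.12 to 0.24, and it was called in 6 of them. On leaving out 1 library the call held only without liraglutide 1 (adjusted p = 0.0257) and ended without liraglutide 2 (0.0777), liraglutide 3 (0.0908), liraglutide 4 (0.0809), model 1 (0.0831), model 2 (0.0808), model 3 (0.0839) or model 4 (0.105). It also ended with the replicate number as a block (0.0757), with a gene length offset (0.0573) and with length and GC content (0.166). Adipocyte markers, which moved in the opposite direction, and muscle fibre markers, of which 5 of 10 were higher, are given above, and their part in the level of Slc2a4 was not tested.

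**Figure D4:**
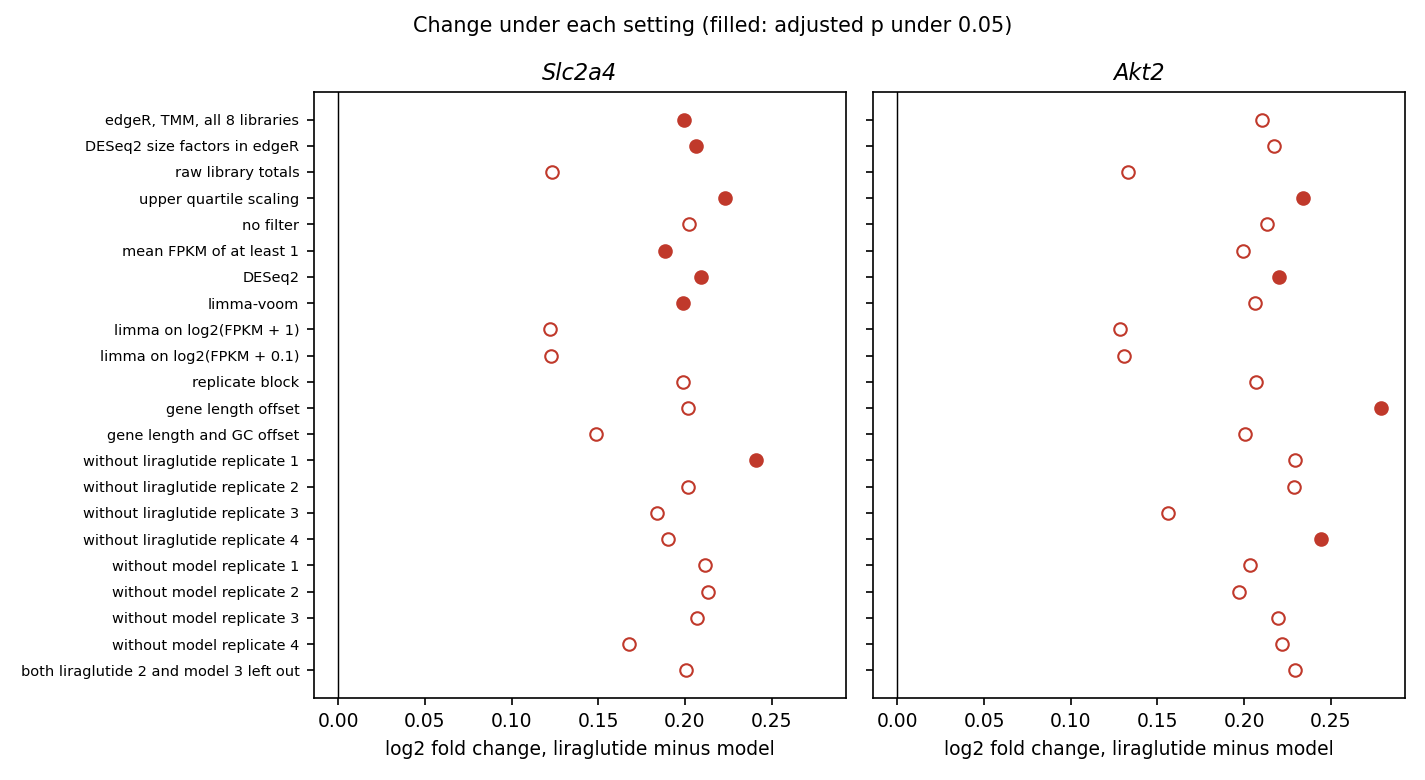
Log2 fold change (horizontal axis, liraglutide minus model) of Slc2a4 and Akt2 under each setting (vertical axis), filled where the adjusted p was under 0.05. All points lie to the right of 0, and 7 of 22 are filled for Slc2a4 and 4 of 22 for Akt2.

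The tested genes whose pattern lay nearest to that of Slc2a4, of 3721 compared, were Oxa1l, Adsl and Rpl21, at distances of 0.03, 0.03 and 0.03 on the log2 scale. Oxa1l encodes an insertase of the inner mitochondrial membrane, Adsl adenylosuccinate lyase of purine synthesis and Rpl21 a cytosolic ribosomal protein. With liraglutide 2 and model 3 left out they ranked 6, 7 and 11.

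Ratios of 2 members within a library need no scaling between libraries, and 5 were compared by an exact two-sided permutation test over 70 assignments, whose smallest p is 0.0286. The ratio of Slc2a4 to Insr ran from 9.28 to 10.9 under liraglutide and from 7.98 to 8.66 in the model group, without overlap. Its difference was 0.27 on the log2 scale (3.32 ± 0.10 against 3.04 ± 0.057, SD, n = 4 per group; exact p = 0.0286, adjusted over the 5 ratios 0.143). Slc2a4 spans 3122 bases in the table and Insr 9391, and with a gene length offset the fitted changes of the pair differed by 0.17, or by 0.10 with GC content added. The ratio of Grb10 to Insr differed by -0.18 (exact p = 0.257, adjusted 0.429), with overlapping groups. Without liraglutide 1, which had the highest liraglutide ratio at 0.635, the difference was -0.29 (exact p = 0.0286, unadjusted, over fewer assignments). On the other omissions of 1 library the exact p was 0.2 to 0.486. For Akt2 to Akt1 the difference was 0.11 (exact p = 0.257, adjusted 0.429), also with overlapping groups. The difference between Akt2 and Akt1 was 0.06 without liraglutide 2, and 0.18 and 0.20 as fitted changes with the length and the length and GC offsets. The ratio of Irs1 to Irs2 differed by 0.52 (exact p = 0.514, adjusted 0.643), with liraglutide 2 at 0.913 and the other liraglutide libraries at 0.188 to 0.376. That difference was 0.05 without liraglutide 2 and 0.81 without liraglutide 1, and 0.28 and 0.35 as fitted changes with the length and the length and GC offsets. Tbc1d1 stood at 1.08 to 1.42 times Tbc1d4 with liraglutide and 1.13 to 1.32 times in the model group (difference 0.03, exact p = 0.771, adjusted 0.771).

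**Figure D5:**
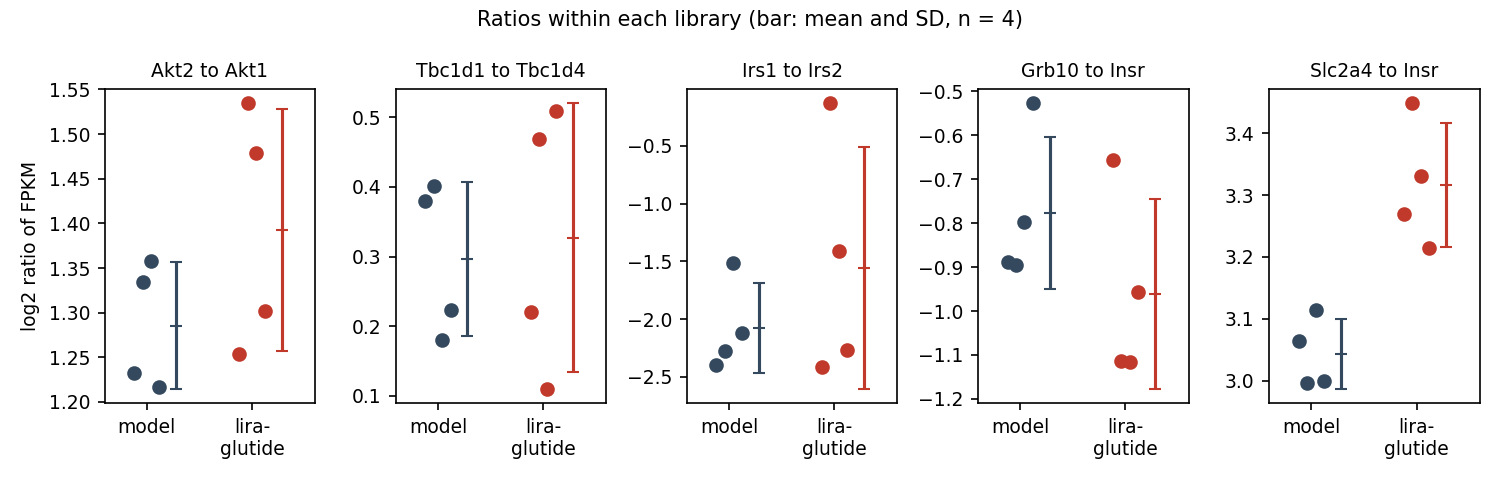
Log2 ratio of FPKM (vertical axes, scaled separately) for 5 pairs of genes in each library, with the mean and SD (n = 4) beside the points. Only the pair of Slc2a4 and Insr shows groups that do not overlap, 3.21 to 3.45 against 2.996 to 3.11.

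Among the other genes of the pathway, 90 in 9 lists, 88 were tested, 3 rose and 6 fell (3.41% and 6.82%, against 5.45% and 4.83% of all genes), with a median log2 fold change of -0.02 against -0.01 over all genes. Leaving out a model library lowered the number that rose, to 0 without model 1, model 2 or model 4 and to 1 without model 3, and the number that fell to 3 without model 1, model 2 or model 4. Over all genes, the calls higher and lower were then 344 to 447 and 271 to 446, lowest without model 1, against 707 and 626 with all libraries. Of the inhibitors of receptor and docking proteins, 10 tested besides Grb10, 1 rose, the cytokine-induced inhibitor Socs3. Socs3 stood at 24.7, 3.33, 2.26 and 14.7 FPKM in liraglutide 1 to 4 and at 1.501, 1.07, 1.47 and 2.71 FPKM in model 1 to 4. Liraglutide 1 and liraglutide 4 stood far above the rest, and liraglutide 3 lay inside the model range. The call (log2 fold change 2.80 ± 0.72 SE, edgeR adjusted p = 0.0381) held in 2 of 8 omissions of a library, those of liraglutide 2 and liraglutide 3. It also ended with a gene length offset (edgeR adjusted p = 0.0513), with length and GC content (0.0766) and in limma-voom (limma adjusted p = 0.208).

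Of 12 other Akt substrates and insulin-regulated enzymes and factors, Akt1s1 rose and Pde3b fell. Pde3b, a cyclic nucleotide phosphodiesterase through which insulin restrains lipolysis in adipocytes, stood at 2.37, 2.01, 2.35 and 3.61 FPKM in liraglutide 1 to 4 and at 6.07, 4.97, 3.99 and 5.29 FPKM in model 1 to 4. The groups did not overlap (log2 fold change -0.90 ± 0.18 SE, edgeR adjusted p = 0.0151), and Pde3b was called in 21 of 21 other settings. Its fall stands beside that of the adipocyte markers, 9 of 12 lower with a median of -0.73, and their part in it was not tested. Akt1s1, a subunit of mTOR complex 1 that Akt phosphorylates, stood at 38.8 ± 1.998 against 34.7 ± 0.776 FPKM (SD, n = 4). As fitted on TMM-scaled counts, its rise was 1.18-fold, or 0.236 in log2 units (edgeR adjusted p = 0.0207). On log2(FPKM + 1) the rise by limma was smaller, at 0.155 in log2 units. The edgeR call of Akt1s1 held in 13 of 21 other settings. It ended without model 1, model 2 or model 4 (adjusted p up to 0.0609) and with length and GC content (0.186). It also ended with raw library totals (edgeR adjusted p = 0.0617) and with liraglutide 2 and model 3 left out (0.0708). In limma on log2(FPKM + 1) and log2(FPKM + 0.1) the limma adjusted p was 0.0556 and 0.0569.

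In the Rac1 and actin branch, which remodels cortical actin during GLUT4 movement, 2 of 9 fell. These were the kinase gene Pak2, at 5.50 ± 0.307 against 7.20 ± 0.475 FPKM, and Tiam1, an activator of Rac1, at 1.03 ± 0.182 against 1.51 ± 0.163 FPKM (SD, n = 4). Fitted on TMM-scaled counts, the log2 fold change was -0.31 ± 0.064 SE for Pak2 (edgeR adjusted p = 0.0159) and -0.48 ± 0.13 SE for Tiam1 (adjusted p = 0.0422). The call of Pak2 held on each omission of a library, up to an adjusted p of 0.0497, and ended with length and GC content (0.134). That of Tiam1 held in 1 of 8 omissions, without liraglutide 1. It also ended with a gene length offset (edgeR adjusted p = 0.120) and with length and GC content (0.110).

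Of 12 other genes of GLUT4 vesicles, tethering and fusion, 1 fell, Lnpep, which encodes the aminopeptidase IRAP that travels with GLUT4. Lnpep stood at 5.81, 4.60, 5.81 and 5.82 FPKM in liraglutide 1 to 4 and at 7.41, 7.37, 7.21 and 6.76 FPKM in model 1 to 4. The groups did not overlap (log2 fold change -0.31 ± 0.085 SE, edgeR adjusted p = 0.0481), and the call held in 1 of 8 omissions, without liraglutide 2. With length and GC content the change was -0.13 (adjusted p = 0.455).

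Among 9 transcription regulators linked to Slc2a4, Myod1 rose and Mef2a fell. Mef2a, which binds the Slc2a4 promoter in muscle, stood at 16.4, 16.05, 15.7 and 16.8 FPKM in liraglutide 1 to 4 and at 19.9, 20.4, 18.4 and 19.9 FPKM in model 1 to 4 (log2 fold change -0.20 ± 0.046 SE, edgeR adjusted p = 0.0248), again without overlap between groups. That call held in 2 of 8 omissions, without liraglutide 4 and without model 3, and with length and GC content the change was -0.03 (adjusted p = 0.788). The myogenic factor gene Myod1 stood at 4.94, 8.43, 7.59 and 5.19 against 4.25, 4.31, 3.80 and 3.93 FPKM (log2 fold change 0.76 ± 0.18 SE, edgeR adjusted p = 0.0249). It was called in 3 of 8 omissions, without liraglutide 1, without liraglutide 2 and without liraglutide 4. With length and GC content the call of Myod1 ended (edgeR adjusted p = 0.0818).

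In 3 lists edgeR called 0 genes besides the members: 7 of receptor, docking and adaptor proteins, 10 of Akt kinases, activators and phosphatases, and 10 of Rab GTPase-activating proteins, Rab and Ral GTPases. At an unadjusted p under 0.05 there were 2, 0 and 2, and DESeq2 also called 0 in each. The smallest p belonged to Cbl, a ubiquitin ligase and adaptor, to the member Akt2, and to Ralgapa2, a subunit of the GTPase-activating complex of Ral. Cbl stood at 1.77 ± 0.238 against 2.30 ± 0.128 FPKM (SD, n = 4), with a TMM-scaled log2 fold change of -0.30 ± 0.098 SE (edgeR adjusted p = 0.0819). Ralgapa2 stood at 1.85 ± 0.143 against 2.42 ± 0.286 FPKM, with a fitted change of -0.31 ± 0.093 SE (edgeR adjusted p = 0.0661). Both were called lower by edgeR with raw library totals (adjusted p = 0.0333 for Cbl and 0.0278 for Ralgapa2), and Ralgapa2 also with the replicate block (0.0374). Among the list genes named here as called, the 5 lower ones are 5236 to 14393 bases long in the table and the 3 higher ones 1854 to 3541 bases.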

How the data were processed

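Polyadenylated RNA of skeletal muscle was sequenced from 4 mice per group with a stranded kit, per the labels' protocols. Per the file headers, the deposited table gives raw counts per gene and FPKM for each library; per the submitters' processing notes the tools included HISAT2, HTSeq, Cufflinks, Trimmomatic and DESeq (versions not given), and the build is named as GRCh38, a human one. The aligned build and the counting strand are therefore unsettled. Annotated antisense genes, not used here, overlap exons of Irs1 and Irs2. The deposited FPKM equalled count over library total and a whole-number gene length for 17484 of 17484 genes with a count, within 0.01 bases.

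Counts were tested with edgeR 4.0.16 (quasi-likelihood, TMM, filterByExpr with a minimum count of 10) in R 4.3.3 over 12963 genes, with Benjamini-Hochberg adjustment and calls at 0.05. Intervals are 95% intervals from the fit's SE. DESeq2 1.42.0 and limma 3.58.1 (log2 FPKM with 1 or 0.1 added, and voom) were alternatives. Length and GC offsets were loess smooths (span 0.5) of each library's log ratios, and GC content was known for 99.5% of tested genes. Code was tested on simulated data. Named genes were the 10 members, up to 3 called genes per list, or the smallest p where none was called, and the 3 nearest in pattern to the member with the smallest p. Motifs and the genes nearest to Irs2 and Pik3r1 were chosen after values were seen. In 1 setting liraglutide 2 and model 3 were left out together, because earlier results described them as standing apart in transcripts of other tissues. The result of 1 called list gene is not reported here. Members and lists were chosen with earlier results of these data known. All library columns were used.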

Additional observations from a re-analysis of the deposited data

Results flagged for a closer look

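Within the liraglutide group, liraglutide 1 stood apart from the other libraries for Slc2a4, at 122.6 FPKM, and liraglutide 2 for Lnpep, at 4.60 FPKM. In both cases the gap to the next library, divided by the range of the group, exceeded Dixon's critical value for groups of 4. These were 2 of 68 groups of 4 values looked at, and chance alone gives about 1 in 20. Both flags are on FPKM. On TMM-scaled counts Slc2a4 stood at 393 CPM in liraglutide 1 against 434, 449 and 437, where the gap was a smaller part of the range. Liraglutide 1 brings the Slc2a4 mean of its group nearer to the model group, and liraglutide 2 takes the Lnpep mean farther from it.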

How the results depend on the processing

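Counts of calls moved with the setting. Members called higher were 0 with raw library totals, without a filter, in limma on log2(FPKM + 1) or log2(FPKM + 0.1), with the replicate block, with the length and GC offset and with liraglutide 2 and model 3 left out, 2 with upper quartile scaling or DESeq2, and 0 to 1 on omission of 1 library. Of all genes, 5.45% were called higher with the main settings, 2.61% with raw totals, 3.33% without a filter, 2.77% and 2.72% in limma, 3.97% with the block, 1.24% with length and GC, 2.82% without both libraries, 5.95% with upper quartile scaling, 5.39% by DESeq2, and 2.63% to 5.05% on omission of 1 library. Other pathway genes called higher were 1 in limma on either FPKM scale, 0 with the length and GC offset, 0 without liraglutide 2 and model 3, and 0 to 4 on omission of 1 library. Those called lower were 17 with raw totals, 12 and 10 in limma with 1 or 0.1 added, 2 with the length offset, 1 with GC content added, and 3 to 7 on omission of 1 library, against 6 with the main settings; of all genes, 9.57%, 8.09%, 7.81%, 3.1%, 2.15% and 2.07% to 4.34% were then called lower, against 4.83%. Directions turned for Insr (0.030 and 0.045 with the length and the length and GC offsets), Irs2 (0.023 with the length offset, 0.054 without liraglutide 2 and model 3) and Pik3r1 (0.076 with the length offset, 0.11 with GC added, 0.025 without these libraries), with no call; over omissions of 1 library Irs2 ran from -0.42 to 0.27 and Pik3r1 from -0.23 to 0.068. The ratio of Tbc1d1 to Tbc1d4 differed by -0.055 without liraglutide 2 and model 3, by -0.021 with the length and GC offset and by -0.030 to 0.10 on omission of 1 library, that of Grb10 to Insr by -0.29 to -0.10. The ratio of Slc2a4 to Insr differed by 0.25 without liraglutide 2 and model 3 and by 0.27 with same-numbered libraries paired, designs too small to reach 0.05, and by 0.17 and 0.10 with the offsets. The causes were not tested. Same-numbered libraries deviated together at correlations of -0.0275 to 0.149. Of 8 libraries 5 correlated best with their own number, each among 4 libraries of the other group. The numbers were not taken as pairs in the main fit, and these correlations alone do not settle whether they are. The length offsets of the ratios were added after seeing the data.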
